A study of Mus musculus with 37 samples.

Results

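The cytosolic ribosomal protein genes are the genes whose products, with the ribosomal RNAs, build the ribosome of the cytosol. Members were taken by name, as rows called Rpl or Rps with a number (a closing letter, a closing digit or both allowed) together with Rpsa, Rplp0, Rplp1 and Rplp2, and names holding -ps were dropped. This gave 84 of the 24421 genes in the table. All 84 had a position in GENCODE vM21 (GRCm38), and 83 were annotated there as protein coding. Rps4l on chromosome 6 (148354656 to 148355598, plus strand) was annotated as a transcribed processed pseudogene.

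Growing cells devote much of their messenger RNA to these proteins, and their transcripts begin with a run of pyrimidines, the 5' terminal oligopyrimidine tract, through which mTOR signalling sets how strongly they are translated. The family is known for moving together, since ribosomal proteins are needed in equal amounts in each ribosome. Most members also have many processed pseudogene copies in the genome, so reads can fit several places.

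The series measured RNA by sequencing in 37 libraries from wild-type female BALB/c mice. N-butyl-N-(4-hydroxybutyl) nitrosamine (BBN), a carcinogen of the urothelium, was given at 0.05% from 6 to 7 weeks of age for 18 weeks, and untreated mice had tap water. The groups were upper tracts of BBN mice on the side bearing cancer (UT, 11 libraries from 10 mice, both ureters of mouse 5 included), the other side without cancer (UN, 7), ureters of untreated mice (U, 6 libraries, both sides of 3 mice), bladders of BBN mice (BB, 10) and bladders of untreated mice (B, 3). The bladders came from the same mice as the ureters, and the number of a library is that of its mouse. Whole pieces of tissue were used, so fewer cells of a type and less RNA per cell cannot be told apart. Values are given as CPM (a gene's counts per 1e6 counts of its library). A member was called at a false discovery rate (FDR, Benjamini-Hochberg over all genes tested) under 0.1 in edgeR's quasi-likelihood test, and the 6 U libraries share 3 mice, so p-values against them are too small.

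The starts of several members that recur in the results are shown because the pyrimidine tract is the shared regulatory element of the family. Each line is 30 bases of the RefSeq promoter table (GRCm38.p6), 5' to 3' on the gene's strand, with the annotated start at base 11. Capitals mark the longest run of C and T that touches the start region.
Rps27: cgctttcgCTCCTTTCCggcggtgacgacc
Rps6: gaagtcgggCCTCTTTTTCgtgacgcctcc
Rpl14: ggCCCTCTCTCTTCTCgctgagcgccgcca
Rpl12: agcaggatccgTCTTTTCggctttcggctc
Rps16: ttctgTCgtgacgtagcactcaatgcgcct
Rpl7l1: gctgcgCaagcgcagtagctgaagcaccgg
They lie at chr3:90213629-90213658 (minus strand, Rps27), chr4:86857348-86857377 (minus, Rps6), chr9:120571507-120571536 (plus, Rpl14), chr2:32961702-32961731 (plus, Rpl12), chr7:28350679-28350708 (plus, Rps16) and chr17:46782637-46782666 (minus, Rpl7l1). The run was 14 bases long in Rpl14, 10 in Rps6, 9 in Rps27 and 7 in Rpl12, whereas it was 2 in Rps16 and 1 in Rpl7l1 at these annotated starts. Of 63 members with a promoter entry, 11 (17.5%) held CTTTC on the gene's strand within 10 bases of the start, against 2.91% of all 27025 genes. CCGGAAG, the core of sites for ETS factors such as GABPA, stood on either strand of 300 bases in 26 members (41.3%), against 9.93% of all genes. AAGATGGC, as in YY1 sites, stood in 6 members (9.52%), against 3.19% of all genes. These are letter matches only, and an annotated start that is off by some bases would miss a tract.

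The members made up very different shares of the counts. The share was 1.25% at its lowest, 1.42% in the median and 2.24% at its highest in the 6 U libraries, and 2.15%, 3.26% and 6.06% in the 11 UT libraries. In the 7 UN libraries the lowest, median and highest shares were 1.47%, 2.81% and 7.69%. The 3 untreated bladders held 3.22%, 3.52% and 3.36%, and the 10 BBN bladders ranged from 2.97% over a median of 3.75% to 24.7%. On mean shares UT exceeded U 2.32 times, UN exceeded U 2.48 times, and untreated bladders exceeded U 2.21 times. On median shares the first 2 ratios were 2.30 and 1.99, and UT over UN was 0.932 on means and 1.16 on medians, so the order of UT and UN turned with the measure. The ratio of large to small subunit counts moved little, between 1.28 and 1.44 over all 37 libraries.

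**Figure D1:**
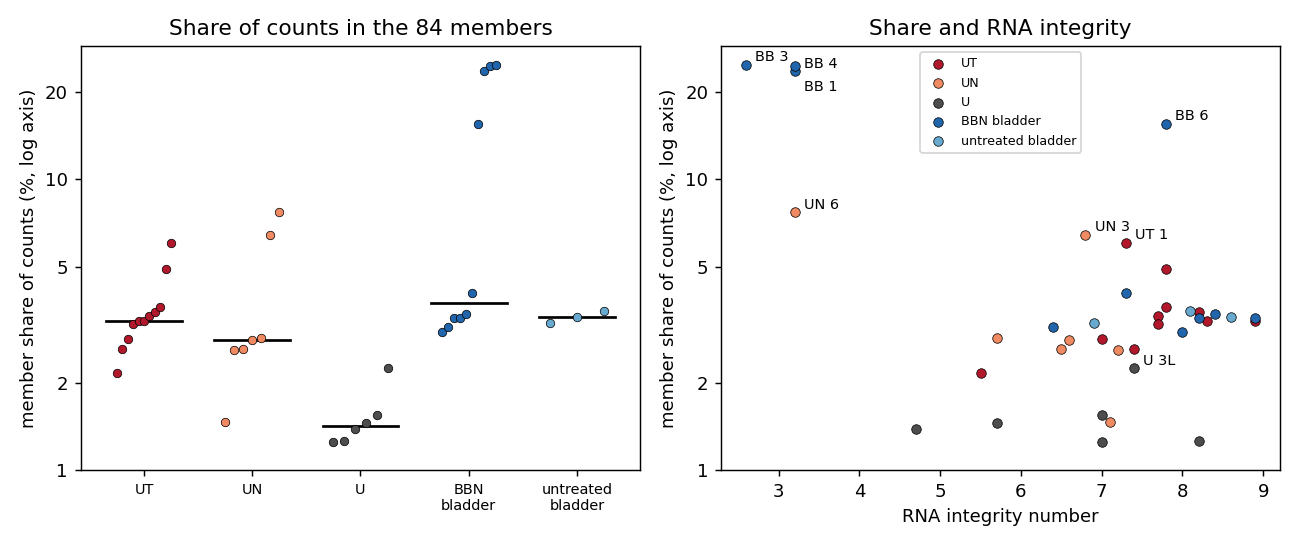
Share of each library's counts in the 84 members (percent, log axis) by group on the left, with a bar at the median, and against the RNA integrity number on the right. BB 1, BB 3 and BB 4 sit above 20% at integrity numbers of 2.6 to 3.2, BB 6 sits at 15.5% at 7.8, and U has the lowest median, with UN 9 (1.47%) within the U range.

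Some libraries stood apart and were kept, and the main counts of called members are also given without them. BB 1, BB 3 and BB 4 held 23.6%, 24.7% and 24.5% of counts in members, and their RNA integrity numbers (RIN, a scale on which intact RNA is near 10) were 3.2, 2.6 and 3.2. BB 6 held 15.5% at a RIN of 7.8, while the other 6 BBN bladders held 3.38% ± 0.376 (SD, n = 6). The labels name the BB 6 library with the letter T, as they name the UT libraries, and the 9 other BBN bladders with N, as UN, and do not explain the letters for bladders. UN 6 held 7.69% at a RIN of 3.2, UN 3 held 6.44% at 6.8, UT 1 held 6.06% at 7.3 and U 3L held 2.24% at 7.4. UT 1, UN 3 and UN 6 came from the same mice as BB 1, BB 3 and BB 6. The ureters of the mouse of BB 4 held 3.26% (UT 4) and 2.62% (UN 4). U 1R, at a RIN of 4.7, held 1.38%, within the range of the other U libraries. In BB 1, BB 3 and BB 4 the ribosomal RNA precursor Rn45s reached 61583 to 154195 CPM and in BB 6 23019 CPM, against 4348 to 6606 CPM in the other 6 BBN bladders. In UN 6 it reached 197253 CPM, against 4119 to 9887 CPM in the other UN libraries. In units of 1e6 counts, totals ran from 9.72 to 18.79 except in UN 6 (4.67), BB 1 (6.34), BB 3 (3.56) and BB 4 (7.82).

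Among members the ratio of these libraries to the rest went with transcript length. Against the median of the 6 other BBN bladders, the median log2 ratio over 81 expressed members was 2.99 in BB 1, 3.07 in BB 3, 3.04 in BB 4 and 2.34 in BB 6. Rps29, a small zinc-binding protein with a transcript of 390 bases, stood highest in BB 3 with a log2 ratio of 4.87, and Rpl7l1, with 1958 bases, stood lowest with -1.56. Across members Spearman's rho of this ratio with length was -0.59 in BB 1, -0.61 in BB 3, -0.57 in BB 4 and -0.52 in BB 6 (a description across 81 genes of 1 library). The 137 other protein-coding genes with transcripts under 600 bases were also higher, with median log2 ratios of 2.27 in BB 1, 1.57 in BB 3, 2.18 in BB 4 and 1.95 in BB 6, while the 2534 genes of 4000 bases or more had medians of -1.70, -1.53, -1.95 and -1.75 in that order. Over all other genes the medians were -1.53, -1.67, -1.70 and -0.98, so long genes lay close to the rest in BB 1, BB 3 and BB 4. The 77 mitochondrial ribosomal protein genes had medians of 0.25, -0.45, 0.59 and 1.17 in the same order. UN 6 had a median of 1.64 and a rho of -0.59, whereas UN 3 had a median of 1.30 and a rho of -0.13. UT 1 had a median of 0.94 and a rho of -0.61 at a RIN of 7.3, and U 3L a median of 0.72 and a rho of -0.54 at a RIN of 7.4, each against the rest of its group. Rn45s was at 17972 CPM in UT 1 and at most 8993 CPM in the other UT libraries. The part of RNA breakdown, library preparation and tissue in these shares was not tested.

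**Figure D2:**
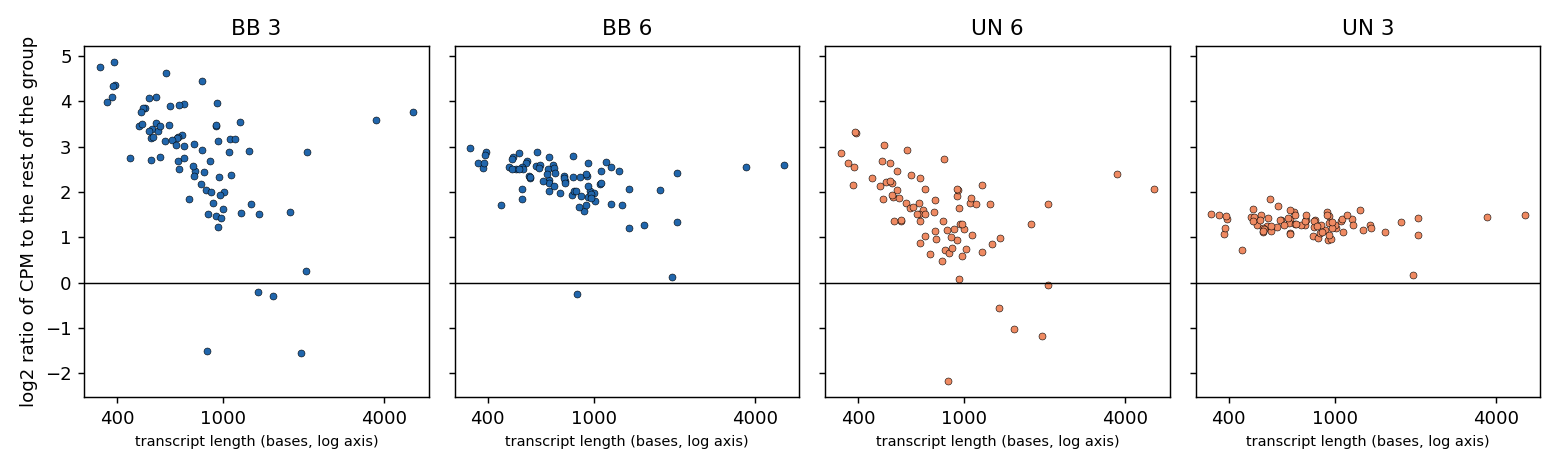
Log2 ratio of each of 81 members' CPM to the median of the rest of its group, against transcript length in bases (log axis), in 4 libraries that stood apart. Short members stand highest in BB 3, BB 6 and UN 6, and in UN 3 the members lie between 0.16 and 1.85 with a median of 1.30.

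RIN was also fitted as a term beside the group. In the bladders 78 of 82 members tested had lower counts at higher RIN, against 31.8% of 18050 genes tested, with a median slope of -0.57 on the log2 scale per RIN unit. Rps29 had a slope of -0.81 ± 0.156 (SE, FDR 7.66e-04), and Rps4l was the 1 member with a called positive slope, 0.13 ± 0.0642 (FDR 0.0894). Without BB 6, 80 members had a called negative slope. In the ureters 17 of 81 members had a called negative slope, against 4.85% of 15658 genes, and Rps21 was steepest with -0.58 ± 0.147 (FDR 0.0441). With limma voom or library totals only none was called, and with no filter on low counts 10 were. UN 6 had the lowest RIN of the ureters (3.2), and without it, an alternative chosen after seeing the data, none was called, against 0.00% of genes, and the median slope over members was 0.08 in place of -0.26. The slope in bladders spans a gap, since BB 1, BB 3 and BB 4 lay at 2.6 to 3.2 and the 10 other bladders at 6.4 to 8.9.

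UT against U asks how cancerous ureter differs from untreated ureter. Of 81 members tested, 59 were higher in UT, against 30.1% of all genes tested, and 1 was lower, against 22.4%. The median log2 fold change over the members was 0.94, and over all genes it was 0.11. Of the large subunit members 32 of 48 were higher, and of the small subunit members 27 of 33. The libraries of 1 mouse share it, and with their counts summed 6 members were past the threshold (16.7% of genes were called higher there) at a median of 0.93. These were Rpl15, Rpl3, Rpl4, Rpl5, Rps3 and Rps3a1, and 20 members had an unadjusted p under 0.05. Without UT 1, UN 3 and UN 6, chosen after their member shares were seen, 75 members were higher, against 31.4% of genes, with a median of 0.76. Without U 3L 69 were higher, against 28.3% of genes, with a median of 1.125. With a 2-fold minimum added 30 were higher, against 18.7% of genes.

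Rpl12, which forms the base of the ribosomal stalk, rose most in UT. Its lowest, median and highest levels were 77.8, 101 and 153 CPM in U and 174.7, 302.7 and 506 CPM in UT, so no UT library lay within the U range. Its log2 fold change was 1.36 ± 0.40 (SE, FDR 0.00863). Rps16, a protein of the small subunit's head, ran from 85.9 over 95.1 to 163 CPM in U and from 168 over 311 to 577 CPM in UT, again without overlap, with a log2 fold change of 1.36 ± 0.415 (FDR 0.0111). Rps12 had a log2 fold change of 1.27 ± 0.497 (FDR 0.0408).

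Of 11 members with textbook roles 7 were called, all 7 higher in UT, against 30.1% of all genes. Rpl5, which with Rpl11 binds Mdm2 under ribosomal stress, had a log2 fold change of 1.12 ± 0.268 (FDR 0.00202), while Rpl11 stood at 0.62 ± 0.334 and was not called (FDR 0.137). Rps6, the substrate of the S6 kinases, rose by 0.79 ± 0.276 (FDR 0.0239). Rps3, which also takes part in DNA repair, rose by 1.11 ± 0.286 (FDR 0.00358), and Rps19, mutated in Diamond-Blackfan anaemia, stood at 0.64 ± 0.375 (FDR 0.167). Rpsa, also known as the laminin receptor, rose by 1.09 ± 0.352 (FDR 0.0157), Rpl4 by 1.04 ± 0.261 (FDR 0.00291) and Rps27a, made as a fusion with ubiquitin, by 1.09 ± 0.378 (FDR 0.0228). In the acidic stalk Rplp0 rose by 1.02 ± 0.338 (FDR 0.0173), whereas Rplp1 (0.76 ± 0.507, FDR 0.230) and Rplp2 (-0.04 ± 0.393, FDR 0.938) were not called. Rplp1 and Rplp2 form dimers on Rplp0.

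Genes outside the rule that work with the ribosome were counted beside the members. Of 49 ribosome biogenesis genes 28 were higher in UT and 1 lower, against 30.1% and 22.4% of all genes, with a median log2 fold change of 0.60. With library totals only 39 of them were higher and none lower, with a median of 0.88. Nop58, a core protein of box C/D nucleolar particles, had 1.51 ± 0.299 (FDR 4.61e-04), and Gar1, of box H/ACA particles, had 1.40 ± 0.265 (FDR 3.36e-04). Of 23 translation and pyrimidine tract genes 16 were higher and 1 lower, and with library totals only 21 were higher and none lower. Among the higher ones was Npm1, a nucleolar chaperone, at 1.31 ± 0.273 (FDR 6.93e-04). Of 22 regulators 4 were higher and 7 lower, with a median of -0.07. With library totals only 7 were higher and 2 lower, with a median of 0.21. The called regulators of largest change were Myc, which drives ribosomal genes, at 1.72 ± 0.345 (FDR 5.13e-04) and Trp53 at 1.45 ± 0.241 (FDR 1.25e-04). Both were higher, and the 7 lower ones are not named. Of 77 genes of the mitochondrial ribosome none was higher and 25 were lower, with a median of -0.34, and Mrps31 fell by 0.80 ± 0.201 (FDR 0.00294). With library totals only the median of this list was -0.06, with 6 higher and 9 lower, and its mean share of counts was 0.443% in UT and 0.459% in U. In that scaling, which moved the median of all genes from 0.11 to 0.39, 41.7% of genes were called higher and 14.1% lower, and of the members 79 were higher and none lower. The lists were counted only and no list was tested against another.

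Cell type markers moved with these groups. The summed level of 6 adipocyte markers was 44827 to 69489 CPM in U and 56.2 to 38460 CPM in UT, and 5 proliferation markers summed to 49.4 to 56.4 CPM in U and 122 to 819.5 CPM in UT, with no overlap in either. Urothelial markers (10 genes) summed to 1494 to 2932 CPM in U and 916 to 7334 CPM in UT in ranges that overlap. Macrophage markers averaged 303 CPM in U and 816 CPM in UT, and smooth muscle markers 2735 and 982.5 CPM, in ranges that also overlap. The 6 B and plasma cell markers summed to 12.6 to 72.8 CPM in U and 36.9 to 2385 CPM in UT, which overlap. Neutrophil markers summed to 7.99 to 12.6 CPM in U and 25.8 to 548 CPM in UT, and skeletal muscle markers to 32.1 to 46.2 CPM in U and 2.18 to 23.4 CPM in UT, with no overlap in either. UT 4 held 2602 CPM of 7 kidney tubule markers, against at most 11.97 CPM in the other UT libraries. Their part in the members' difference was not tested.

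**Figure D3:**
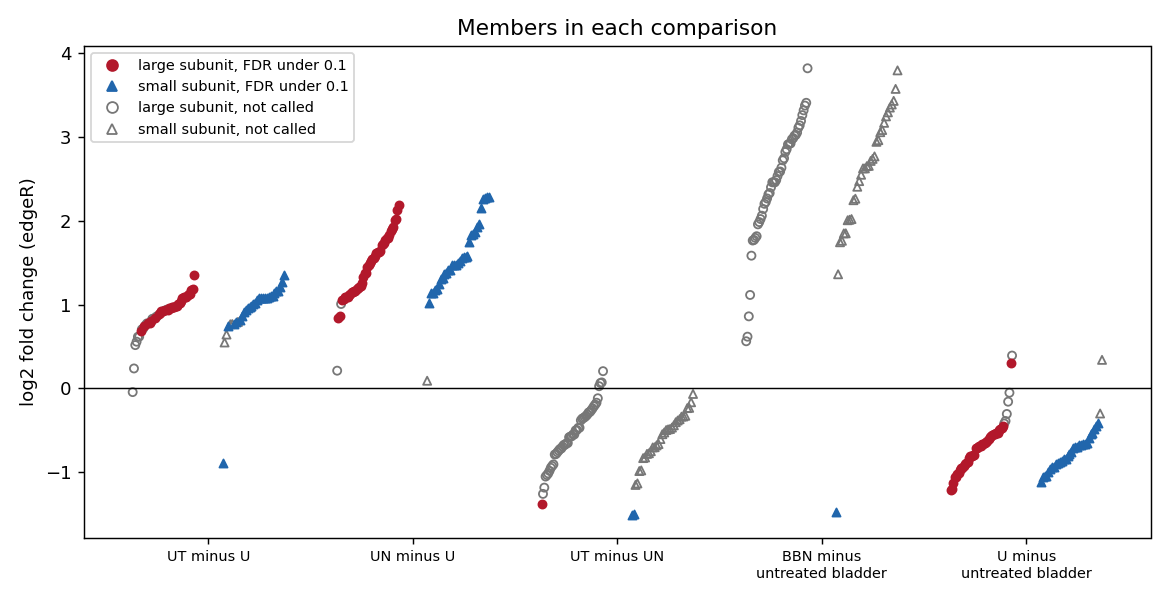
Log2 fold change of each member tested in the 5 comparisons (edgeR), sorted within each subunit, with large subunit members as circles and small subunit members as triangles, and filled where the FDR was under 0.1. Rpl10l, tested in bladders only and with 41 counts in all 37 libraries, is left out. All but Rps4l and Rplp2 lie above 0 in UT against U, all lie above 0 in UN against U, and 78 of 81 lie below 0 in U against untreated bladder (all 81 with library totals only). In BBN bladders the members spread from 0.56 to 3.82 and are open, apart from Rps4l at -1.48.

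UN against U asks what BBN exposure does to a ureter without visible cancer. Of 81 members tested 78 were higher in UN, against 16.0% of genes, and none was lower, against 4.00%. The median log2 fold change was 1.48 (0.13 over all genes), and the largest were those of Rps27 at 2.29 ± 0.585 (FDR 0.0135), Rps21 at 2.28 ± 0.621 (FDR 0.0184) and Rps29 at 2.27 ± 0.611 (FDR 0.0175). Rps27, like Rps29, binds zinc in the small subunit, of which Rps21 is also a part. Their transcripts have 345, 394 and 390 bases. Rps4l (0.09 ± 0.472), Rpl7l1 (0.21 ± 0.172) and Rplp2 (1.01 ± 0.439, FDR 0.128) were not called.

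The UN libraries were uneven. Rps29 ran from 160 over 283 to 2440 CPM in UN and from 133 over 155 to 261 CPM in U, and the top value was UN 6. The second highest UN value was 673 CPM in UN 3, and the other 5 UN libraries lay from 160 to 392 CPM, partly within the U range. Without UN 6, 59 members were called, against 14.2% of genes, at a median of 0.90. Without UT 1, UN 3 and UN 6, 4 were called, against 8.20% of genes, at a median of 0.52, namely Rps16 (0.72 ± 0.253), Rpl12 (0.71 ± 0.238), Rps12 (0.69 ± 0.240) and Rps3 (0.62 ± 0.216). With the counts of each mouse's libraries summed, no member was called (0.901% of genes were), although 78 had an unadjusted p under 0.05, and DESeq2 called 79 on all libraries. Without U 3L 79 members were called, against 15.4% of genes, at a median of 1.66. Of the other lists, 10 of 49 biogenesis genes were higher and none lower, against 16.0% and 4.00% of all genes, 13 of 23 translation genes were higher and 1 lower, and 2 of 77 mitochondrial ribosomal genes were higher. Adipocyte markers in UN summed to 10307 to 61423 CPM, and in UN 2 the 10 urothelial markers summed to 25.9 CPM, against 916 CPM or more in every UT library. B and plasma cell markers summed to 184.9 to 970.7 CPM in UN and neutrophil markers to 14.8 to 307 CPM, against 12.6 to 72.8 and 7.99 to 12.6 CPM in U, with no overlap. Their part was not tested.

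UT against UN compares both sides of the tract in BBN mice. No member was higher, against 2.41% of genes, and 3 of 81 were lower, against 6.21%, with a median of -0.55. They were Rps21 (-1.52 ± 0.498, FDR 0.0865), Rps29 (-1.50 ± 0.490, FDR 0.0862) and Rplp1 (-1.38 ± 0.461, FDR 0.0911). Rps21 ran from 68.3 over 87.6 to 217 CPM in UT and from 50.5 over 83.3 to 738 CPM in UN, so the groups overlapped and the medians were close. With the mouse as a block, in the 7 mice with both sides, no member was called in either direction. Without UN 6 none was called lower and the median was 0.01, while leaving out UT 1 gave 16 lower, against 8.20% of genes, and leaving out UN 7 gave 19, against 13.6%. In the full set 19 members had an unadjusted p under 0.05. The mean RIN was 7.60 in UT and 6.16 in UN, and with RIN as a covariate no member was called and the median was 0.03. The 23 members with transcripts under 600 bases had a median of -0.91 and the 18 tested members of 1000 bases or more -0.37. Adipocyte markers averaged 12141 CPM in UT and 29906 CPM in UN, and proliferation markers 337 and 162 CPM, in ranges that overlap. The part of these in the difference was not tested. In the pairs themselves UT held the larger share in 5 mice and the smaller in 2, mouse 3 (3.38% against 6.44%) and mouse 6 (3.19% against 7.69%), whose UN libraries stood apart.

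BBN bladders against untreated bladders gave a wide spread. In the 10 and 3 libraries, 81 of 82 members had a positive log2 fold change, with a median of 2.61 against 0.25 over all genes, but none was called higher, against 7.72% of genes. At an unadjusted p under 0.05 there were 39 members in either direction, and DESeq2 called 78 higher. Rpl12 ran from 254 over 346 to 2462 CPM in BBN bladders and was 292, 322 and 293 CPM in the untreated ones. Rps29 ran from 266 over 350.5 to 8466 CPM in BBN bladders, and its untreated levels were 307, 334 and 313 CPM. In both genes 6 BBN bladders lay near the untreated ones, and BB 1, BB 3, BB 4 and BB 6 lay at 1700 CPM or more. Urothelial markers summed to 1154 to 8464 CPM in BBN bladders, against 19282 to 20285 CPM in untreated ones, and smooth muscle markers to 1012 to 7577 CPM, against 9289 to 11153 CPM. Fibroblast markers summed to 612 to 3448 CPM in BBN bladders and 3574 to 5061 CPM in untreated ones, skeletal muscle markers to 13.6 to 168 and 221 to 262 CPM, and neutrophil markers to 9.997 to 181.0 and 6.56 to 8.36 CPM. None of these 5 sums overlapped. Proliferation markers ran from 73.5 to 555 CPM in the 10 BBN bladders and from 66.6 to 78.6 CPM in the untreated ones. Their part in the members' values was not tested.

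In the 6 other BBN bladders the median log2 fold change over 81 members was 0.01, and 41 members had a positive one. There 4 members were called higher, against 22.8% of genes, and 4 lower, against 19.0%. The higher ones were Rps27l (0.75 ± 0.203, FDR 0.0174), Rpl7l1 (0.54 ± 0.120, FDR 0.0069), Rps24 (0.43 ± 0.135, FDR 0.0329) and Rpl27 (0.31 ± 0.125, FDR 0.0803), and the lower ones Rps4l (-1.34 ± 0.193, FDR 5.85e-04), Rpl36 (-0.44 ± 0.132, FDR 0.0285), Rpl37a (-0.38 ± 0.137, FDR 0.0563) and Rpl14 (-0.35 ± 0.120, FDR 0.0475). These libraries were chosen by the members' own share after it was seen, so the calls describe them only, and with all libraries of RIN 5 or more, BB 6 included, 1 member was called higher (Rpl7l1), against 14.5% of genes, and 1 lower (Rps4l), against 12.4%. In the 6 other BBN bladders urothelial markers summed to 4638 to 8464 CPM and proliferation markers to 270.5 to 555 CPM, neither overlapping the untreated bladders, and their part in these calls was not tested.

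Rps4l was the 1 member called in BBN bladders with all libraries, lower in BBN with a log2 fold change of -1.48 ± 0.298 (FDR 0.00532), against 6.18% of genes called lower. The table gives it 13 to 263 counts in BBN bladders and 446 to 569 in untreated ones. Its level was 3.47, 10.8 and 17.4 CPM at the lowest, median and highest in BBN bladders and 39.7, 29.7 and 27.7 CPM in untreated bladders, with no overlap. It was also lower in UT than in U (-0.89 ± 0.421, FDR 0.0896), although there UT ran from 2.16 over 10.98 to 21.97 CPM and U from 14.1 over 17.4 to 21.3 CPM, which overlap. That call was lost with mice summed, with RIN as a covariate, with library totals only, with no filter, and without any 1 of U 1L, U 1R, U 2L, U 3L, U 3R, UT 2, UT 4, UT 5L, UT 5R, UT 6 and UT 10 (-0.84 without U 3L, FDR 0.140). Rps4l is close in sequence to Rps4x, and its reads may be shared with that gene. Its level was 5.998 to 9.56 per 100 of Rps4x in untreated bladders and 2.29 to 3.20 in the 6 other BBN bladders, and Rps4x itself ran from 428 to 543 CPM there and 415 to 495 CPM in untreated bladders.

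**Figure D4:**
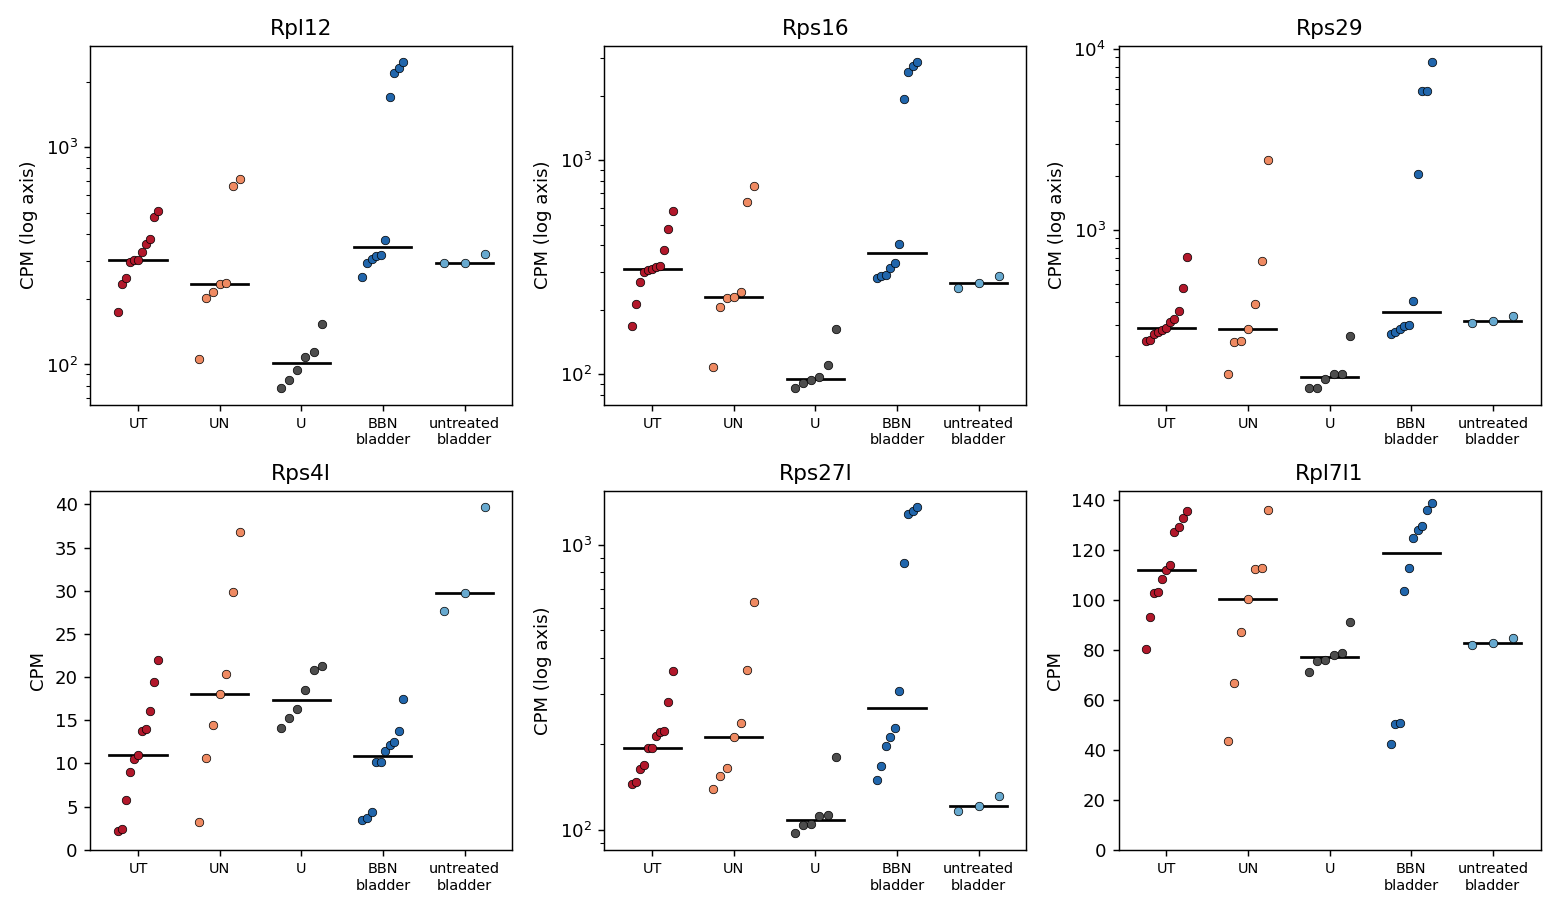
CPM of 6 members in every library by group (log axis except for Rps4l and Rpl7l1), with a bar at the median. Rpl12 and Rps16 in UT lie above all U libraries, 4 BBN bladders lie far above the rest for Rpl12, Rps16, Rps29 and Rps27l, and Rps4l lies lower in all 10 BBN bladders than in the 3 untreated ones.

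Rps27l is a copy of Rps27 and a known p53 target. Its lowest, median and highest levels were 150, 267 and 1348 CPM in BBN bladders, against 122, 131 and 117 CPM in untreated ones, so every BBN bladder lay above every untreated one. Per 100 CPM of Rps27 it stood at 41.0 to 46.9 in untreated bladders, 60.9 to 112 in the 6 other BBN bladders, 108.5 to 135 in U, 64.3 to 116 in UT and 44.2 to 153 in UN. Over all 10 BBN bladders it ran from 21.95 to 112, on both sides of the untreated ones. Rps27 itself is uncertain, because Rps27rt, listed as a gene of its own, held 98.7 to 99.9 per 100 of the Rps27 counts in all 37 libraries, so the reads of these genes cannot be told apart. Rpl7l1, a paralog of Rpl7, ran from 71.1 over 77.0 to 91.3 CPM in U and was 82.1, 84.7 and 82.6 CPM in untreated bladders. In BB 1, BB 3 and BB 4 it lay at 50.2, 42.2 and 50.5 CPM, below the untreated bladders, and in the other 7 BBN bladders at 103 to 139 CPM, above them. Rpl22l1, a paralog of Rpl22, held 31.1 to 38.7 per 100 of Rpl22 in untreated bladders and 52.7 to 76.8 in U, and Rpl36al, outside the rule, held 116 to 129 and 152 to 193 per 100 of Rpl36a.

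Rpl3l, a striated muscle form of Rpl3, Rpl10l, a testis form of Rpl10, and Rpl39l, also a testis form, were close to undetected. Their largest counts in any library were 18, 14 and 11, and they were at 0 counts in 4, 26 and 15 of 37 libraries. A count of 0 allows up to 3 counts by counting error alone. These are the 3 members left out of the ureter tests by the filter on low counts.

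U against untreated bladder shows the starting levels of both tissues. Of 81 members, 72 were lower in U, against 33.0% of genes, and 1 was higher, against 31.7%, with a median of -0.70. With a 2-fold minimum added 12 were lower, against 14.3% of genes, and none was higher. Rpl32 had the largest of the called differences, with 553, 585 and 585 CPM in the bladders and 149, 168 and 298 CPM at the lowest, median and highest in U, a log2 fold change of -1.22 ± 0.219 (FDR 4.6e-04), without overlap. Rpl14 had -1.20 ± 0.176 (FDR 9.1e-05) and Rpl12 -1.13 ± 0.198 (FDR 3.74e-04). Rpl7l1 was the 1 called higher, at 0.30 ± 0.116 (FDR 0.0399), but its mean level was 78.4 CPM in U and 83.1 CPM in bladder, and with library totals only its log2 fold change was -0.08. Rplp2 had 0.39 ± 0.202 (FDR 0.116), at mean levels of 203 CPM in U and 204 CPM in bladder, and Rps27l had 0.34 ± 0.208 (FDR 0.180), at 118.5 and 123 CPM. With library totals only 0 of 81 members had a positive log2 fold change, and the median over all genes was -0.40. Without U 3L 78 members were lower, against 35.9% of genes, and 2 higher, against 34.1%, with a median of -0.88.

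The other lists were counted in the same fit. Of 77 mitochondrial ribosomal genes 64 were higher in U and none lower, against 31.7% and 33.0% of all genes, with a median of 0.88, and Mrpl12 had 1.59 ± 0.211 (FDR 4.02e-05). With library totals only 54 of the 77 were higher and 7 lower, with a median of 0.49. Of 49 biogenesis genes 4 were higher and 21 lower (median -0.26), and of 23 translation genes 1 was higher and 14 lower (median -0.52), with Eif3f, a subunit of the initiation factor eIF3, at -1.40 ± 0.111 (FDR 5.17e-07). With library totals only 2 biogenesis genes were higher and 40 lower (median -0.64). In the same scaling no translation gene was higher and 22 were lower (median -0.91). Of 21 regulators 5 were higher and 6 lower, and with library totals only 2 were higher and 10 lower. Among them Eif4ebp1, the repressor of cap-dependent translation, had 2.38 ± 0.231 (FDR 2.82e-06) and Mycl -2.01 ± 0.166 (FDR 7.34e-07). Adipocyte markers summed to 449 to 2336 CPM in untreated bladders, against 44827 to 69489 CPM in U, and urothelial markers to 19282 to 20285 CPM, against 1494 to 2932 CPM in U. Smooth muscle markers summed to 9289 to 11153 CPM in bladder and 1825 to 3384 CPM in U, fibroblast markers to 3574 to 5061 and 1352 to 2066 CPM, skeletal muscle markers to 221 to 262 and 32.1 to 46.2 CPM, and proliferation markers to 66.6 to 78.6 and 49.4 to 56.4 CPM. None of these 6 sums overlapped. The part of these cell types in the members' lower level was not tested.

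The test of whether the BBN difference of a member differs between ureter and bladder, (UN minus U) minus (BB minus B), called none of 83 members higher, against 1.52% of genes, and none lower, against 0.548%. The ureters and bladders share mice, which this fit did not take into account. In edgeR 1 member, Rps4l (1.54, FDR 0.177), had an unadjusted p under 0.05, DESeq2 called none, and limma voom with quality weights called 2 higher, against 13.3% of genes, and 1 lower, against 10.6%, at a median over members of 0.43. The median over members was -1.14 with all libraries and 1.47 without BB 1, BB 3, BB 4 and BB 6, when 4 members, among them Rpl14, Rpl32 and Rps18, were called higher, against 5.02% of genes. That leaves UN 3 and UN 6 in, and without these as well, also chosen after seeing the data, the median was 0.54, with 3 members higher (Rps4l, Rpl32 and Rpl14), against 7.40% of genes, and none lower, against 5.14%. The direction of the median thus turned with the tool and with the libraries left out.

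Most members varied together across libraries. Over the 11 UT libraries the correlation of log2 CPM of a member with the mean of the other members had a median of 0.97 over 81 members, and 4 were under 0.8: Rps4l (0.10), Rpl7l1 (0.32), Rplp2 (0.62) and Rpl22l1 (0.79). Over all 37 libraries Rps4l had -0.47 and Rpl7l1 -0.30, and Rpl4 and Rpl3 had 0.68 and 0.71. All members of a library share its total and its RNA quality, so these are descriptions.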

How the data were processed

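RNA was extracted by the submitters with the miRNeasy Mini Kit, and libraries were made with SMARTerHT and Nextera XT and read on a DNBSEQ-G400RS. Per the labels, the processing notes name TopHat2 2.1.1, Cuffdiff 2.2.1 and GRCm38 (mm10). The authors deposited estimated counts per gene, of which 21.1% of values above 0 were fractional, and no sample was pooled. How reads that fit several copies were shared is not given in the sources used here, nor is strand. The RNA integrity numbers were read from the sequencing statistics of the series. In these statistics UT 8, UT 9, UT 10, UN 9, BB 8, BB 9 and BB 10 carry later sample codes than the other libraries. No U or untreated bladder library is among them, and the part of this in the values was not tested.

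The deposited estimated counts were rounded to whole numbers and tested with edgeR 4.0.16 (quasi-likelihood test, TMM, filterByExpr) in R 4.3.3, with limma 3.58.1 (voom) and DESeq2 1.42.0 as alternatives. UT, UN and U shared 1 fit, and bladders, U with untreated bladders, and the interaction had their own. Scripts used Python 3.11.15. In edgeR, UT against U, BBN against untreated bladders, and U against untreated bladders were run on simulated data with known changes. The other comparisons, the RIN slopes and the other tools were not. Positions and transcript lengths (the median of a gene's basic transcripts) come from GENCODE vM21. Which transcript was expressed was not measured, so a length may differ from it, and the longest value was 5130 bases for Rps15a. Named members are, per comparison, the 3 called members of largest log2 fold change in each direction, the paralog pairs and members with textbook roles, and for other lists at most 2 called genes each. Rpl15, Rps3a1, Rps24, Rpl27, Rpl36, Rpl37a and Rps18 were named after their values were seen, and some members are not reported by name here. The members, lists and tests were chosen with earlier results of these data known.

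UT and UN libraries of 1 mouse are paired by the mouse number in the labels. Deviations from the group mean correlated with a median r of -0.00 (-0.18 to 0.69) in the 7 same-mouse pairs and -0.02 in 70 others, and with 0.01 in 6 pairs of U with untreated bladder. Alternatives were other scalings, no filter, other tools, a 2-fold minimum, RIN, summed mice, the mouse as a block and leaving out each library. Counting error is only part of the spread between libraries.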

Additional observations from a re-analysis of the deposited data

Results flagged for a closer look

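Values of 1 library far from the rest of its group were looked for in 95 sets, the named members with a mean of at least 10 CPM, the member share and the subunit ratio in U, UN and BBN bladders (UT, with 11 libraries, was not tested). In 29 of them the gap was past Dixon's 95% value, where chance gives about 1 in 20, and the sets share libraries. U 3L accounted for 18: its member share was 2.24%, and its levels in CPM were 184.9 for Rpl11, 56.6 for Rpl22l1, 297.5 for Rpl32, 87.6 for Rpl36a, 150.8 for Rpl39, 729 for Rplp0, 264 for Rplp1, 296 for Rplp2, 163 for Rps16, 707 for Rps19, 80.3 for Rps21, 166 for Rps27, 271 for Rps27a, 179.8 for Rps27l, 261 for Rps29, 480.0 for Rps3 and 407 for Rps6. All of these were the highest value of U.

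UN 6 was far above the other UN libraries in Rpl39 (1151 CPM), Rplp1 (2106), Rplp2 (977), Rps12 (982), Rps21 (738), Rps27 (1428) and Rps29 (2440). UN 3 was far above them in Rpl3 (1674), Rpl4 (1762), Rpl5 (856) and Rps3 (1621). The members in which UN 6 stood apart have transcripts of 345 to 612 bases, and those of UN 3 of 952 to 2045 bases. Only the highest or lowest library of a set can be found this way, so UN 3 could be found high only where it exceeded UN 6. In UN 3 all 81 members had a positive log2 ratio to the rest of its group (0.16 to 1.85), with a rho of -0.13 with length. The cause was not tested.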

How the results depend on the processing

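Leaving out UT 1, UN 3 and UN 6, or BB 1, BB 3, BB 4 and BB 6, with or without UN 3 and UN 6, or BB 6 or UN 6 alone from the RIN slopes, and fitting groups alone, were chosen after seeing the data. Of 78 calls of named members, 833 other settings kept 701, lost 123 and reversed 9, and leaving out 1 library kept 1351 of 1456 and reversed none. Causes were not tested. Rpl7l1 in U against untreated bladder had -0.084 with library totals only. In UT against UN, Rplp1 had 0.054 in voom and 0.0072 without UT 1, UN 3 and UN 6, Rps21 had 0.088 with RIN, 0.14 in voom and 0.079 without those 3, and Rps29 had 0.033, 0.106 and 0.0081 in that order.

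Members higher in BBN bladder numbered 78 in DESeq2, 2 in voom, 1 at RIN 5 or more and 4 without the 4 bladders, when 4 were lower. For the interaction 2 were higher and 1 lower in voom, 1 higher at RIN 5 or more, 4 without the 4 bladders and 3 without these, UN 3 and UN 6. Higher in UN than U were 0 with mice summed, 23 at RIN 5 or more and 4 without the 3 libraries. Higher in UT than U were 6 with mice summed and 30 with the 2-fold minimum, and lower 0 with RIN, mice summed, totals only, no filter or the 2-fold minimum. Lower in UT than UN were 11 in DESeq2, 5 with RLE, and 0 with RIN, UT and UN alone, mice summed, totals only, voom, no filter, RIN 5 or more or without the 3 libraries. Higher in U than untreated bladder were 2 in DESeq2, voom, RLE, with RIN or at RIN 5 or more, 3 with mice summed, and 0 with totals only or the 2-fold minimum, which left 12 lower. Called positive RIN slopes in bladders were 0 in DESeq2, RLE, voom or without BB 6, and 2 with totals only or no filter. Called negative slopes in ureters were 0 with totals only, voom or without UN 6, and 10 with no filter. Without the 10 most abundant other genes the mean share was 3.64% in untreated bladder (3.37% with them), 1.80% in U (1.52%), 3.85% in UT (3.52%), 4.69% in UN (3.78%) and 13.35% in BBN bladder (10.86%).

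With the mouse as a block the members lower in UT than UN numbered 0, and for U against untreated bladder 1 was higher and 73 lower. Leaving out 1 library gave 0 to 1 higher for the interaction, 0 to 1 higher in BBN bladder, 0 to 2 higher and 65 to 78 lower in U than bladder, 59 to 79 higher in UN than U, 43 to 75 higher and 0 to 1 lower in UT than U, and 0 to 19 lower in UT than UN (16 without UT 1, 19 without UN 7, 0 without UN 6).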
